A study of Mus musculus with 5 samples.

Results

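An SCF ubiquitin ligase marks proteins with ubiquitin, and its F-box protein is the part that binds the target. The 6 genes described here encode F-box proteins of the "other" class, named Fbxo, with known substrates in the cell cycle, the p53 response, cell survival or DNA repair. They were chosen by name from the deposited sheets, as Fbxo4, Fbxo10, Fbxo11, Fbxo18, Fbxo22 and Fbxo28, and make up 6 of the 33 Fbxo genes and 6 of 71 genes in all, F-box genes and cullins together. Affymetrix expression arrays, on which probe sets of short oligonucleotides read each transcript, gave them 11 of the 130 probe sets. Fbxo22 and Fbxo28 were read by 3 probe sets, Fbxo4 by 2, and Fbxo10, Fbxo11 and Fbxo18 by 1 each.

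The 5 samples were left ventricle, isolated cardiomyocytes (CM), lung fibroblasts, cardiac fibroblasts from failing hearts (failing CFb) and cardiac fibroblasts from non-failing hearts (non-failing CFb). All came from male mice aged 6 months, and each sample was a pool of 5 mice. The failing CFb were from beta1-adrenergic transgenic mice with heart failure, whose transgene promoter and background strain the labels do not state. The other 4 samples were from healthy C57Bl/6N animals. Each condition had 1 sample, so no value has a replicate error, no difference has a replicate check, and no test was made. The transgene, any difference of background strain and the disease cannot be told apart in failing CFb. Markers of cardiomyocytes, fibroblasts, endothelium, leukocytes or lung epithelium were sought only among the cullin and F-box genes of the sheets, which hold none (0 genes). The whole array was not searched for them, so the labels of the samples were not checked.

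Most of what is known of these receptors comes from human and mouse cell lines and knockout mice rather than from heart. Adult CM rarely divide, whereas fibroblasts can re-enter the cycle in culture and in injured tissue. Receptors of this kind can set how long a cyclin, p53 or a BCL2 family protein persists, and an array reads their mRNA, not the protein or its activity.

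The regions just before the start sites of Fbxo11, Fbxo22 and Fbxo18 are shown because these genes carried the largest differences in gene mean below. For Fbxo18 and Fbxo22 those differences rest on low left ventricle readings. The regions are the 250 bases before the start in RefSeq, mouse assembly GRCm38.p6, printed on the strand of the gene. Fbxo18 stands there under its newer symbol Fbh1, and the other 5 genes under the same name. Capitals mark CCAAT on either strand (seen as ATTGG) in Fbxo11 and Fbxo18, and CCGGAAG, the core bound by ETS factors, on either strand in Fbxo22.
Fbxo11 (chr17:88066046-88066295, minus strand): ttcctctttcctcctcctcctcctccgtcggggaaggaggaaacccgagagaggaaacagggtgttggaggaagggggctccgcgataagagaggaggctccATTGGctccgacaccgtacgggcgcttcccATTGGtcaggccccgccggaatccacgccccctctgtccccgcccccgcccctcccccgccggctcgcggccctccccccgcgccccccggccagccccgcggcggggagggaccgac
Fbxo22 (chr9:55208685-55208934, plus strand): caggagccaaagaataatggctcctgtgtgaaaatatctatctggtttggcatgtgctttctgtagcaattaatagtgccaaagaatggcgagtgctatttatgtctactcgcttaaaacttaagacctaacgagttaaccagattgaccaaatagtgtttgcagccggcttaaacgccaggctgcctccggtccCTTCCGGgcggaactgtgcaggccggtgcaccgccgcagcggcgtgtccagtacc
Fbxo18, as Fbh1 (chr2:11777586-11777835, minus strand): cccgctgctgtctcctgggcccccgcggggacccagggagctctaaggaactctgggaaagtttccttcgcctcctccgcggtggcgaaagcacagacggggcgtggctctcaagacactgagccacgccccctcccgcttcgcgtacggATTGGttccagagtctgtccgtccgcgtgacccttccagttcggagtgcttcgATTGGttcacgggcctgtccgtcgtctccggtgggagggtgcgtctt

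CCAAT was found 2 times before the start of Fbxo18, beginning at positions -100 and -47 with the start site as 0, and 2 times in the first of 2 Fbxo11 promoters, at -148 and -118. It was also found at -10 in Fbxo28. Of all 32851 promoters of this length, 33.8 percent hold CCAAT, so that 3 of 8 promoters of these genes is near that share. The ETS core stood at -55 in Fbxo22 and is held by 6.91 percent of all promoters. CACGTG, the E-box of MYC and its relatives, stood in both Fbxo10 promoters, which overlap and share the same site, and is held by 6.02 percent. A p53 half-site was matched at -46 in the second Fbxo11 promoter, as in 7.13 percent of all promoters. None of the E2F words TTTCGCGC, TTTGGCGC and TTTCCCGC lies in these windows (0 of 8, and 1.53 percent of all promoters). These motifs do not overlap each other, and a match is a run of letters only. Median GC content was 66.8 percent over the 8 promoters of the 6 genes and 52.4 percent over all promoters. Fbxo10 and Fbxo11 enter this median with 2 promoters each, at 68.4 and 73.6 percent and at 72.4 and 70.8 percent. Fbxo18 stood at 65.2 and Fbxo28 at 54.4 percent, whereas Fbxo22 at 50.4 and Fbxo4 at 49.2 percent lay under the median of all promoters.

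Levels are the deposited log2 values, and the level of a gene is the mean over its probe sets. The study used a level of 6.0 as the mark of relevant expression and 6.5 as that of strong expression. In CM all 6 genes passed both marks, while 53.5 percent of the 71 genes reached 6.0 and 43.7 percent exceeded 6.5 in that sample. This count does not stand on its own, because the study had put all 6 genes into its siRNA library for their CM level. The same holds for the CM side of each difference below. The study listed Fbxo4, Fbxo22 and Fbxo28 in its group above 6.5, but Fbxo10, Fbxo11 and Fbxo18 in its group from 6.0 to below 6.5. Here the last 3 genes read 6.68, 8.23 and 6.62 in CM. The study defined its groups over multiple measurements, whereas each of these values is 1 probe set in 1 sample. The values and the groups are thus not on the same basis. In lung fibroblasts 5 of 6 genes reached 6.0 and also exceeded 6.5, against 49.3 and 39.4 percent of all genes. In left ventricle 4 of 6 reached 6.0 (33.8 percent of all genes) and 3 exceeded 6.5 (28.2 percent). In failing CFb only 3 of 6 reached 6.0, where 73.2 percent of all genes did, and 2 exceeded 6.5, where 54.9 percent did. In non-failing CFb 6 of 6 reached 6.0, against 74.6 percent of all genes, but only 2 exceeded 6.5, against 64.8 percent. These counts depend on the scale of the samples. In non-failing CFb, 1 of 6 reached 6.0 and 0 exceeded 6.5 with equal medians and also with quantile normalization. Of all genes, 56.3 and 52.1 percent then reached 6.0, and 33.8 and 36.6 percent exceeded 6.5. In CM, 4 exceeded 6.5 with equal medians (39.4 percent of all genes) and 3 with quantile normalization (36.6 percent). By the median of the probe sets 5 did (43.7 percent). In failing CFb, 2 reached 6.0 with equal medians (59.2 percent) and 1 with quantile normalization (50.7 percent).

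**Figure D1:**
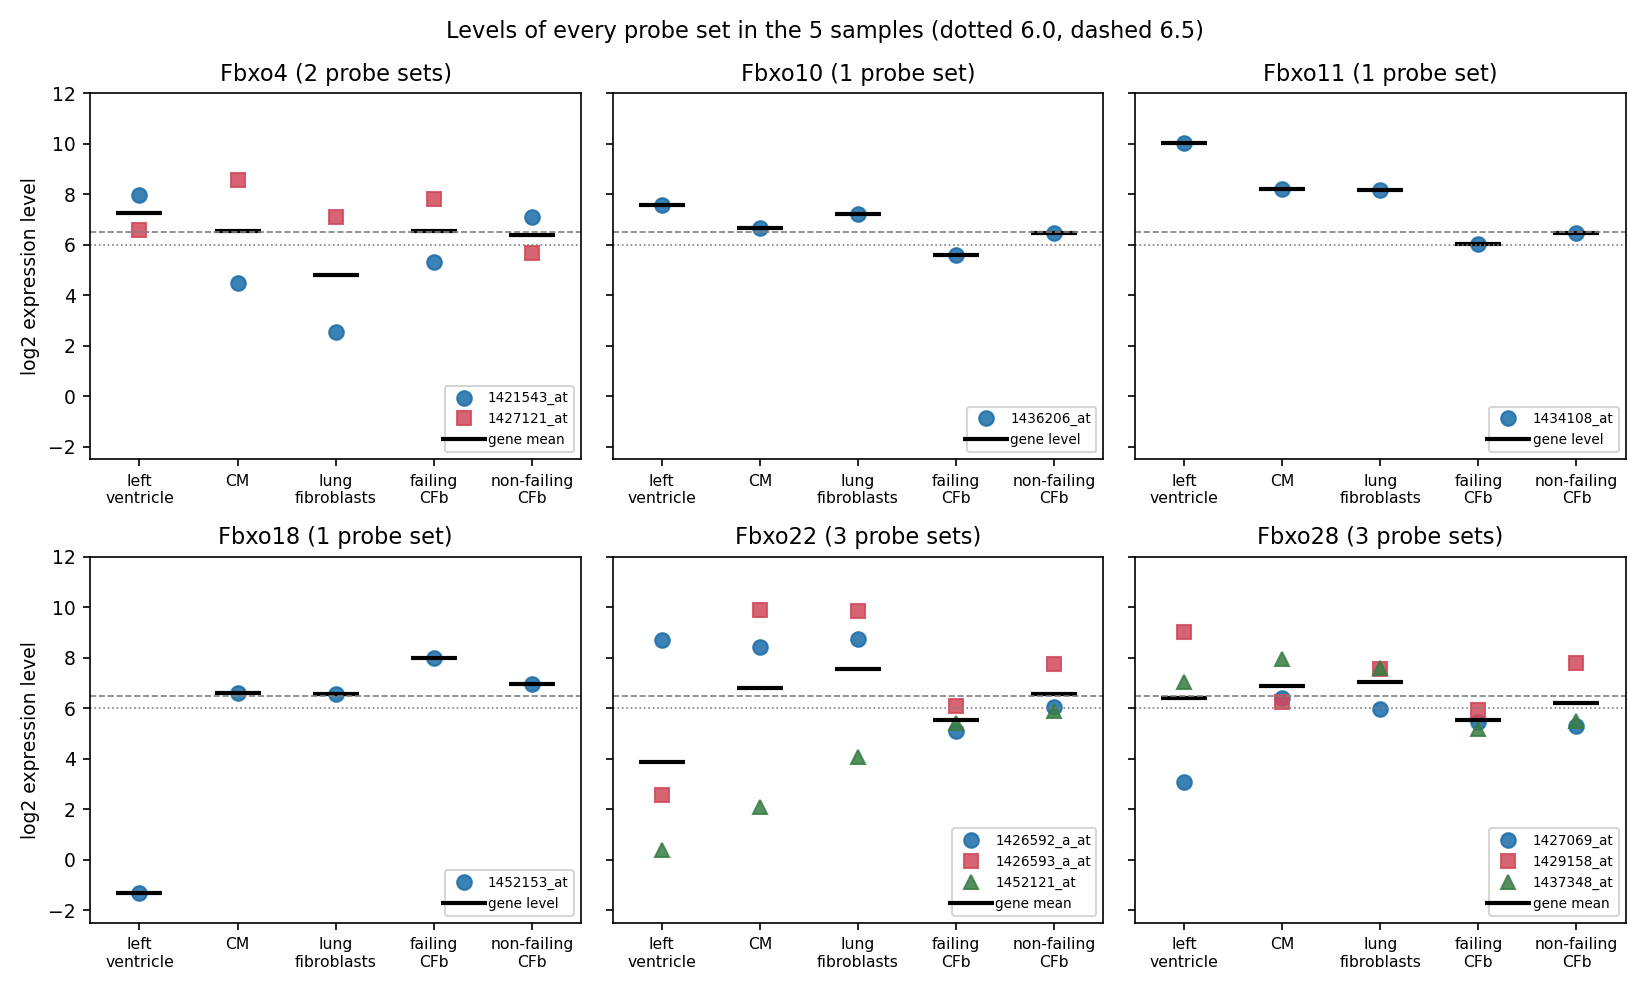
Log2 expression level (y axis) of every probe set of the 6 genes in the 5 samples (x axis), with 1 panel per gene; symbols are probe sets, black bars the gene mean, and the dotted and dashed lines stand at 6.0 and 6.5. Fbxo11 ran between 6.02 in failing CFb and 10.02 in left ventricle, and Fbxo18 stood at -1.32 in left ventricle. The probe sets of Fbxo22 and Fbxo4 lay far apart in CM and lung fibroblasts, and those of Fbxo22 also in left ventricle.

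The scale of the values differed between samples, which touches every difference below. The median of the 130 probe sets was 4.76 in left ventricle, 6.22 in CM, 6.27 in lung fibroblasts, 6.51 in failing CFb and 6.67 in non-failing CFb, and the lowest probe set stood at -3.32 in left ventricle but at 4.76 and 4.82 in failing and non-failing CFb. Each probe set is therefore also given by its rank among the 130 of its sample, with 1 as the highest, which does not depend on such scales. Ranks are compared here only for the same probe set between samples. Of the 11 probe sets of these genes, 5 stood among the top 32 in left ventricle, 4 in CM and 4 in lung fibroblasts, against 2 in failing and 2 in non-failing CFb. Among the bottom 32 there were 2 in each of left ventricle, CM and lung fibroblasts, but 5 in failing CFb and 4 in non-failing CFb. By definition 32 of all 130 probe sets stand in each of these ranges, and the counts of 2 to 4 of 11 are near that share. Several of the 11 read the same gene, and the CM count is touched by the study's choice of these genes for their CM level.

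**Figure D2:**
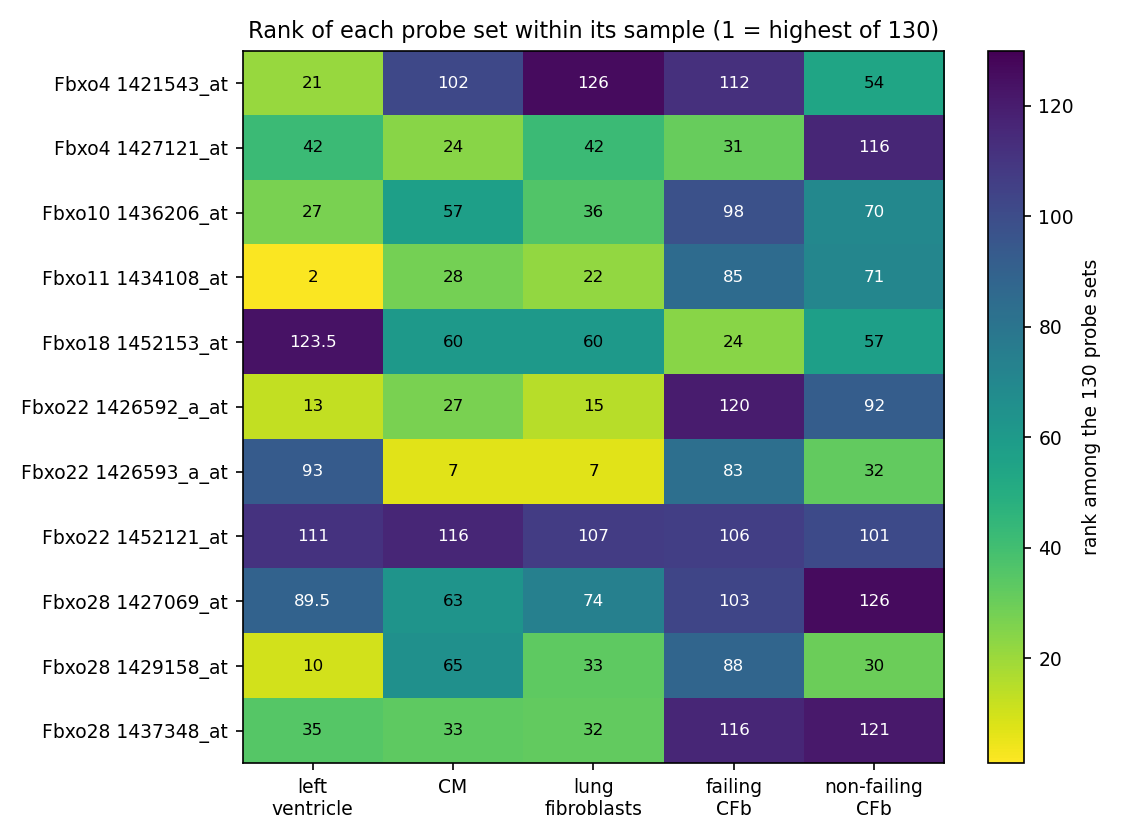
Rank of each of the 11 probe sets (rows, with gene and probe set name) among the 130 probe sets of its sample (columns), where 1 is the highest level and light colours are high ranks. Fbxo11 stood at rank 2 in left ventricle and at 85 in failing CFb, and 1426593_a_at of Fbxo22 at rank 7 in CM and in lung fibroblasts but at 93 in left ventricle.

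Fbxo4 is the receptor of an SCF ligase for cyclin D1, which drives entry into S phase, and for the telomere protein TRF1. Its gene mean was 7.27 in left ventricle, 6.53 in CM, 4.82 in lung fibroblasts, 6.57 in failing CFb and 6.40 in non-failing CFb. Probe set 1427121_at read 6.58, 8.59, 7.09, 7.83 and 5.68 in the same samples, and 1421543_at read 7.96, 4.48, 2.55, 5.30 and 7.11. The 2 probe sets thus ran against each other: the first was highest in CM and lowest in non-failing CFb, the second highest in left ventricle and lowest in lung fibroblasts. Their SD within 1 array was 2.91 in CM and 3.21 in lung fibroblasts, against medians of 1.71 and 1.81 over the 32 genes with several probe sets. In lung fibroblasts no other gene had a larger SD (0 of 32).

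Fbxo28 encodes a receptor that CDK1 and CDK2 phosphorylate and that ubiquitinates MYC without degrading it in human cells. Its gene mean varied least of the 6 genes, with 6.39 in left ventricle, 6.88 in CM, 7.03 in lung fibroblasts, 5.53 in failing CFb and 6.21 in non-failing CFb, which is 2.84-fold between highest and lowest. Under this mean the 3 probe sets again differed. Probe set 1437348_at read 7.06 in left ventricle, 7.97 in CM and 7.58 in lung fibroblasts, against 5.18 in failing and 5.51 in non-failing CFb, and its rank was 35, 33 and 32 in the first 3 samples and 116 and 121 in the other 2. Probe set 1429158_at was highest in left ventricle at 9.03 and also high in non-failing CFb at 7.80, but read 6.23 in CM, 7.55 in lung fibroblasts and 5.95 in failing CFb. Probe set 1427069_at lay between 3.09 in left ventricle and 6.43 in CM.

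Fbxo22 is a receptor for the histone demethylase KDM4A and for methylated p53, and human FBXO22 is itself induced by p53 in senescent cells. Its gene mean was 3.88 in left ventricle, 6.81 in CM, 7.57 in lung fibroblasts, 5.53 in failing CFb and 6.58 in non-failing CFb. Probe set 1426593_a_at read 9.89 in CM and 9.87 in lung fibroblasts, against 2.56 in left ventricle, 6.08 in failing CFb and 7.77 in non-failing CFb. Probe set 1426592_a_at was high in all of left ventricle, CM and lung fibroblasts, at 8.69, 8.43 and 8.77, and read 5.12 in failing CFb and 6.06 in non-failing CFb. The remaining one, 1452121_at, read 0.38 in left ventricle, 2.10 in CM, 4.08 in lung fibroblasts, 5.40 in failing CFb and 5.91 in non-failing CFb, yet its rank stayed between 101 and 116 in all 5 samples, so that its level followed the lower end of each sample. In CM the mean thus joins readings far apart, whose SD of 4.14 was exceeded by 1 of the 32 genes with several probe sets. In left ventricle the SD was 4.31, exceeded by 3 of the 32.

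Fbxo11 encodes a receptor that targets the transcription repressor BCL6 and CDT2, a receptor of CUL4 ligases, for degradation, and that can attach NEDD8 to p53. Its single probe set read 10.02 in left ventricle, 8.23 in CM, 8.18 in lung fibroblasts, 6.02 in failing CFb and 6.46 in non-failing CFb. Left ventricle was highest, CM and lung fibroblasts differed by 0.05, and both CFb samples were lowest. The rank of the probe set gave the same picture, with 2 in left ventricle, 28 in CM, 22 in lung fibroblasts, 85 in failing CFb and 71 in non-failing CFb. In whole tissue a difference can come from the number of cells of a type or from the RNA per cell, and these cannot be told apart.

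Fbxo10 encodes a receptor for the survival protein BCL2 in human lymphoma cells. Its single probe set read 7.59 in left ventricle, 6.68 in CM, 7.21 in lung fibroblasts, 5.59 in failing CFb and 6.48 in non-failing CFb. Of the 71 genes, 64 varied over a wider range. Its rank was 27, 57, 36, 98 and 70 in the same order, highest in left ventricle and lowest in failing CFb.

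Fbxo18, now Fbh1, encodes a DNA helicase that carries an F-box. Its single probe set read -1.32 in left ventricle, 6.62 in CM, 6.55 in lung fibroblasts, 7.99 in failing CFb and 6.97 in non-failing CFb. It was the only one of the 6 genes with its highest level in failing CFb, where its rank was 24, against 60 in CM and in lung fibroblasts and 57 in non-failing CFb. The left ventricle value corresponds to a linear intensity of 0.4 in the whole-array table, with rank 123.5, tied with another probe set. All 11 left ventricle values of these genes were given with at most 1 decimal in that table, so rounding alone places this level anywhere between -1.51 and -1.15. In the other samples its intensity was 98.6 in CM, 93.8 in lung fibroblasts, 255 in failing CFb and 125 in non-failing CFb. Signal over background was not given, so the difference from left ventricle is described by the values and ranks rather than as a fold.

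Failing CFb were set against non-failing CFb to ask which receptors differ in fibroblasts of the failing heart. A gene was counted as different where its mean differed 2-fold or more, given a level of 6.0 or more in either sample, a rule of size that stands in for a test. By it Fbxo18 was higher in failing CFb, by 1.03 on the log2 scale, and Fbxo22 lower, at -1.04. The rule took 19.7 percent of the 71 genes as higher and 22.5 percent as lower, so 1 of 6 in each direction is near the share of all genes. Fbxo22 was lower by all 3 probe sets, at -0.94, -1.69 and -0.50, with an SD of 0.60, but its mean lay at -0.72 without 1426593_a_at, under 2-fold. Fbxo10 and Fbxo28 had differences of -0.89 and -0.68, Fbxo11 of -0.44 and Fbxo4 of 0.17. The last hid the opposite readings of its probe sets, at 2.15 and -1.81. Of the 11 probe sets, 8 were lower in failing CFb and 7 stood at a worse rank there, where 3 of 11 were higher against 46.2 percent of all 130. By the rule of size 2 of them passed as higher and 3 as lower, against 21.5 and 28.5 percent of all 130. The median difference was -0.56 over the 6 genes and -0.13 over the 71.

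CM were set against non-failing CFb to compare the muscle cell with its neighbour in the healthy heart. Fbxo11 was higher in CM by 1.77 on the log2 scale, or 3.42-fold, and was the only gene of the 6 to pass, where 21.1 percent of all genes passed as higher and 36.6 percent as lower. None of the 6 passed as lower (0 of 6). Gene means hid much of what the probe sets read. The 2 _a_at probe sets of Fbxo22 were higher by 2.37 and 2.12 while 1452121_at was lower, at -3.80, and the mean differed by 0.23. Without 1452121_at the mean would be higher by 2.24. For Fbxo4, 1427121_at was higher by 2.90 and 1421543_at lower, at -2.63. For Fbxo28, 1437348_at was higher by 2.46 and 1427069_at by 1.11, while 1429158_at was lower, at -1.57. Fbxo10 differed by 0.20, and Fbxo18 by -0.34 as deposited but by 0.10 under another scaling. Of the 11 probe sets, 6 passed the rule as higher and 2 as lower, where the rule took 29.2 and 36.2 percent of all 130.

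**Figure D3:**
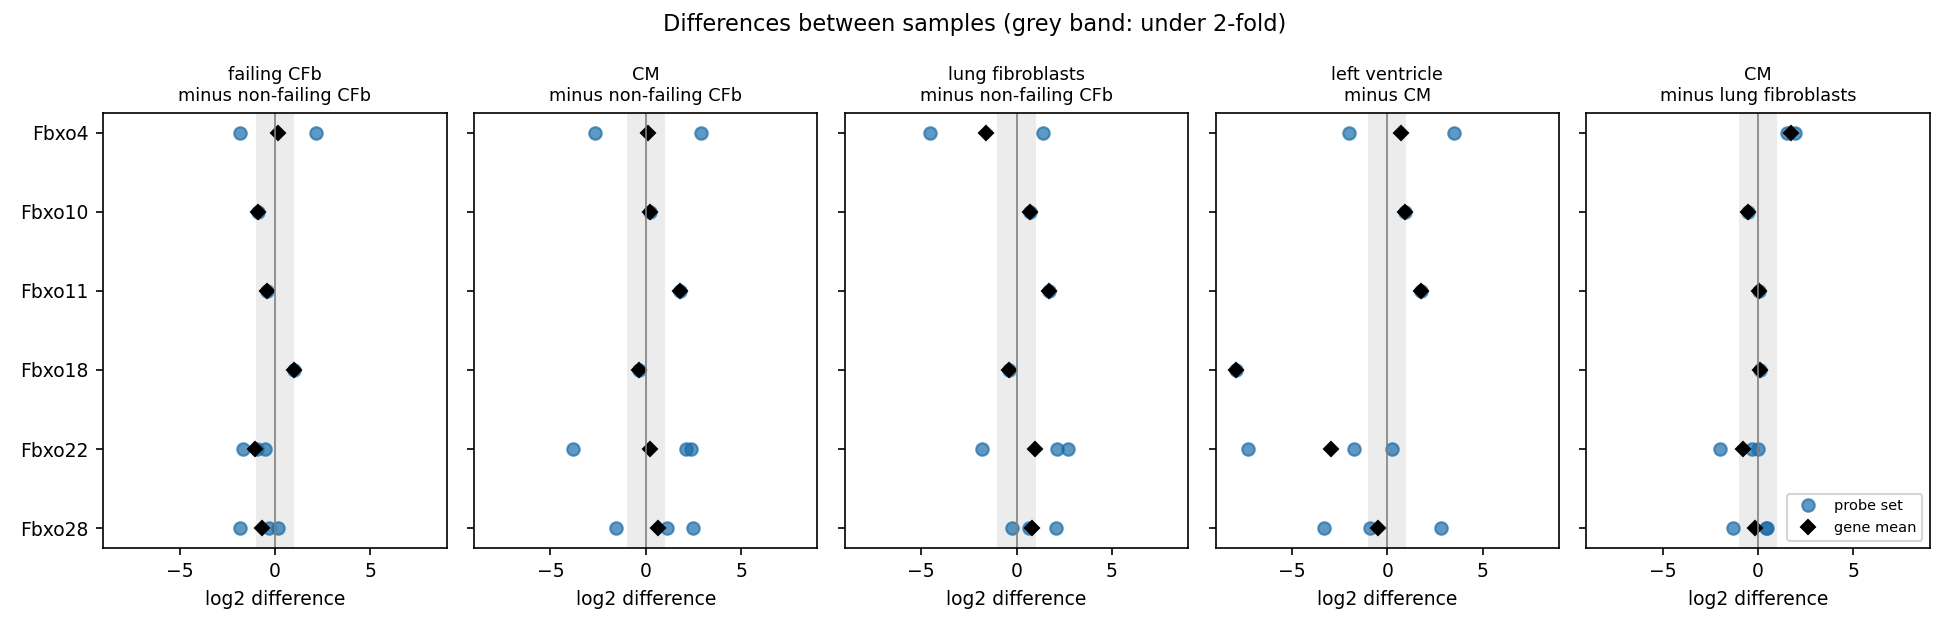
Log2 difference (x axis) of each probe set (circles) and gene mean (diamonds) of the 6 genes (y axis) in the 5 pairs of samples, with the grey band marking less than 2-fold. Fbxo11 stood at 1.77, 1.72 and 1.78 in the 3 middle panels, and probe sets of Fbxo4 lay on both sides of 0 in all panels but the last. The left ventricle point of Fbxo18 rests on an intensity of 0.4.

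Lung fibroblasts were set against non-failing CFb to compare fibroblasts of 2 organs, a comparison that shares the non-failing CFb sample with the 2 above. Fbxo11 was higher in lung fibroblasts, by 1.72 on the log2 scale or 3.29-fold, and Fbxo4 lower, at -1.57. The rule took 14.1 percent of the 71 genes as higher and 42.3 percent as lower. The call of Fbxo4 rested on 1421543_at, which was lower, at -4.56, since 1427121_at was higher by 1.41. Fbxo22 fell just short of 2-fold at 0.99, with its _a_at probe sets higher by 2.71 and 2.10 and 1452121_at lower, at -1.83, and its mean would be higher by 2.41 without the last. Fbxo28 and Fbxo10 differed by 0.83 and 0.73, Fbxo18 by -0.42. Among the 11 probe sets, 5 passed as higher and 1 as lower, beside 23.8 and 35.4 percent of all 130. The median difference was 0.78 over the 6 genes and -1.08 over all 71. These 2 medians are not on a like footing. The study chose the 6 genes for their CM level, whereas the 71 include genes with low levels. The lowest of the 130 probe sets stood at 1.76 in lung fibroblasts but at 4.82 in non-failing CFb, so genes with low levels can differ here by scale.

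Left ventricle was set against isolated CM to compare the tissue with its main muscle cell. Fbxo11 was higher in left ventricle by 1.78 on the log2 scale, or 3.45-fold. Fbxo18 passed as lower, with a level of -1.32 in left ventricle and 6.62 in CM. Fbxo22 passed as lower at -2.93, a mean that includes probe sets with left ventricle intensities of 5.9 and 1.3. Of all 71 genes, 14.1 percent were higher and 31.0 percent lower by the rule. The low mean of Fbxo22 came mostly from 1426593_a_at at -7.33, as 1426592_a_at differed by 0.27 and 1452121_at by -1.73, and the mean without the first lay at -0.73, so that the call rested on that probe set. Without 1426592_a_at the mean differed by -4.53, with neither level reaching 6.0. Fbxo4 again had opposite probe sets, at 3.48 and -2.01, as had Fbxo28 at 2.80, -0.91 and -3.34. Fbxo10 differed by 0.90. Of the 11 probe sets, 3 passed as higher and 4 as lower, beside 13.1 and 34.6 percent of all 130. Fbxo28 differed by -0.48 in its mean as deposited but by 0.98 with equal medians, so no direction can be given for it.

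CM and lung fibroblasts, whose medians lay closest, were compared last, and the CM sample is shared with the comparisons against non-failing CFb and left ventricle. Fbxo4 was higher in CM by 1.71 on the log2 scale, or 3.27-fold, with both probe sets higher, by 1.92 and 1.49, and an SD of 0.31. Among Fbxo4, Fbxo22 and Fbxo28, which had several probe sets, and over the 5 pairs, it was the only difference that had 1 direction in all probe sets and passed under all 3 scalings tried. Without 1427121_at neither level reached 6.0, so that the level part of the rule rested on that probe set. The rule took 16.9 percent of all genes as higher and 18.3 percent as lower. None of the 6 was lower by it (0 of 6). The remaining means differed by 0.05 for Fbxo11, 0.07 for Fbxo18, -0.16 for Fbxo28, -0.52 for Fbxo10 and -0.77 for Fbxo22. For Fbxo22, 1426593_a_at differed by 0.01 and 1426592_a_at by -0.34, whereas the low 1452121_at differed by -1.97. As single probe sets, 1 of the 11 passed as higher and 1 as lower, beside 16.2 percent of all 130 in each direction. The small difference of Fbxo11 ran from -0.28 to 0.10 over the scalings, so it has no direction.

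With equal medians of the samples, or with quantile normalization, the differences moved with the scale of each sample. Both scalings used only the 130 cullin and F-box probe sets, not the whole array. A difference shared by most of these probe sets would therefore be lessened by them. Fbxo11 passed under each of the 3 scalings in the 3 pairs where it was higher, with differences from 1.77 to 2.22 for CM and from 1.72 to 2.29 for lung fibroblasts, each minus non-failing CFb, and from 1.78 to 3.25 for left ventricle minus CM. Fbxo18 stayed higher in failing than in non-failing CFb, by 1.03 to 1.56, and it passed as lower in left ventricle than CM under all 3. Fbxo22 passed in failing against non-failing CFb under 1 of 3 scalings, with differences from -1.60 to -0.89. With quantile normalization its difference was -1.60, and it did not pass because neither level reached 6.0, at 4.08 in failing and 5.68 in non-failing CFb. Fbxo4 in lung fibroblasts minus non-failing CFb also passed under 1, from -1.57 to -0.14, and at -1.17 with equal medians it did not pass because neither level reached 6.0. Fbxo10 in failing minus non-failing CFb ran from -1.28 to -0.73 and passed under 0 of 3. At -1.28, with quantile normalization, neither of its levels reached 6.0, at 4.60 in failing and 5.88 in non-failing CFb. Fbxo10 in left ventricle minus CM ran from 0.90 to 2.37 and passed under 2, and Fbxo4 in the same pair from 0.74 to 2.21, also under 2. Fbxo28 in lung fibroblasts minus non-failing CFb ran from 0.83 to 2.72 and passed under 2, as did Fbxo10 at 0.73 to 1.54 and Fbxo22 at 0.99 to 1.63. In CM minus non-failing CFb, Fbxo28 ran from 0.67 to 2.36 and passed under 2, while Fbxo22 at 0.23 to 1.15 and Fbxo4 at 0.13 to 1.26 passed under 1 each.

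**Figure D4:**
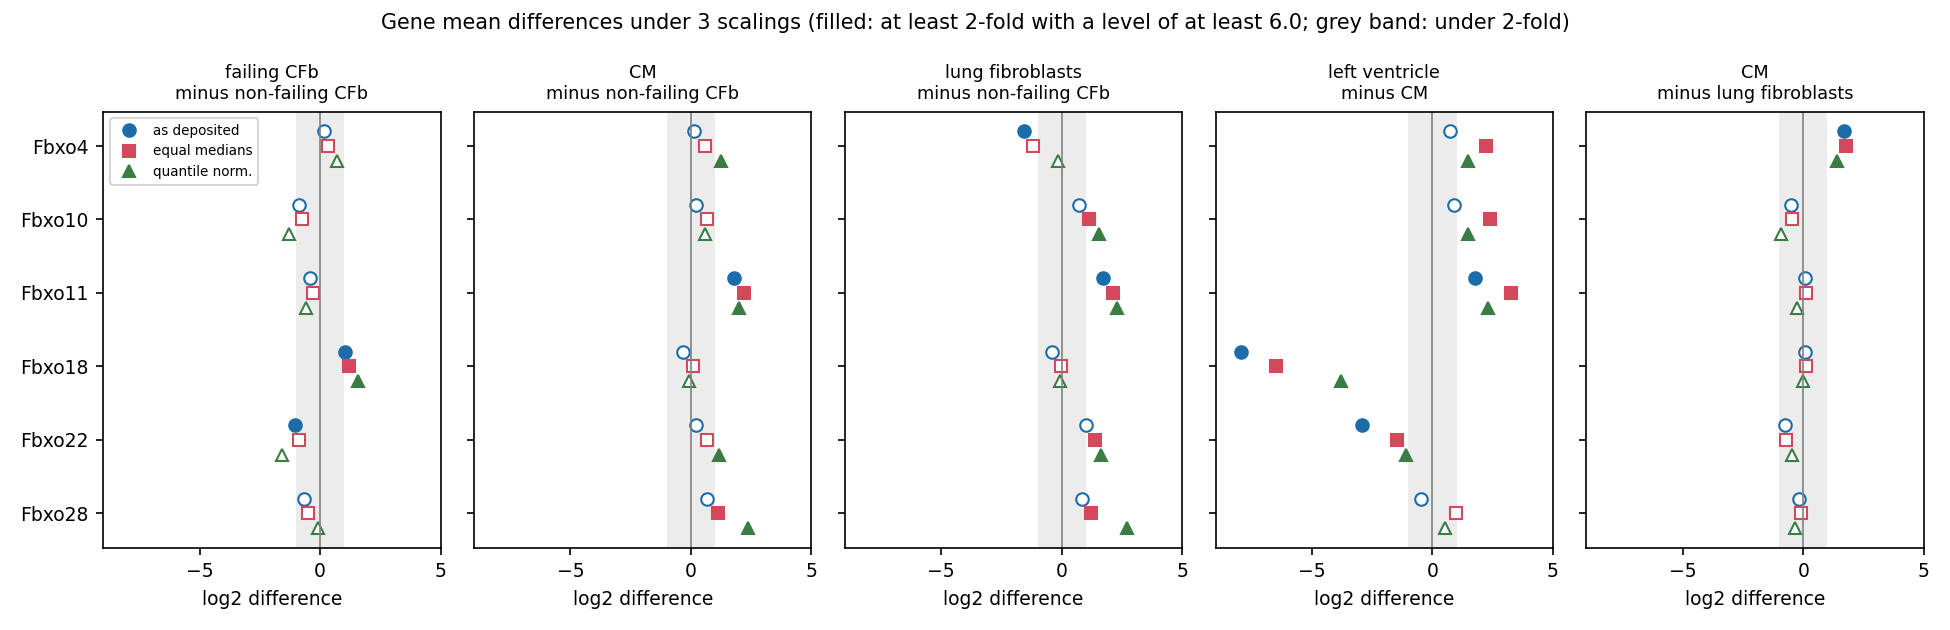
Log2 difference of the gene means (x axis) of the 6 genes (y axis) in the 5 pairs under 3 scalings of the samples (circle as deposited, square equal medians, triangle quantile normalization), filled where the gene passed the rule of size. Fbxo11 was filled for each scaling in the 3 middle panels, and Fbxo4 in the last, where it ran from 1.40 to 1.75.

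The 6 genes did not share 1 pattern over the samples. The means of Fbxo4, Fbxo22 and Fbxo28 join probe sets that ran apart. The pattern of such a mean, compared below, need not be that of any of its probe sets. Likeness was measured as the root mean square difference over the 5 samples, on the log2 scale, between gene means that were each centred on their own average. Fbxo10 and Fbxo28 were nearest to each other among the 6 at 0.47, and Fbxo11 and Fbxo18 farthest apart at 4.66, a value that includes the left ventricle level of Fbxo18. Among the other 65 genes, those nearest to Fbxo4 were Fbxo32 at 0.37 and Fbxo25 at 0.41, and those nearest to Fbxo11 were Fbxo9 at 0.48 and Fbxl5 at 0.67. Nearest to Fbxo22 were Fbxo21 at 0.48 and Fbxl17 at 0.49, and to Fbxo28 Cul4b at 0.44 and Cul7 at 0.71. Fbxo33 at 0.50 and Cul7 at 0.52 were nearest to Fbxo10. For Fbxo18 the nearest genes were Fbxl19 at 0.62 and Fbxo38 at 1.07, both of which were also low in left ventricle, at -1.32 and 0.49.

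Other cullins and F-box receptors with known roles in the cell cycle, p53 or survival were taken from a list of 24 genes, of which 18 were measured. In failing against non-failing CFb, 3 of the 18 were higher and 3 lower, beside 19.7 and 22.5 percent of all 71 genes. Cul4a, a scaffold of CDT2 ligases, differed by -5.20, Fbxl12 by 2.57, and Fbxo5, which encodes the APC/C inhibitor Emi1, by 1.99. On the lower side of each, Cul4a read 5.49 in failing CFb, where the median probe set stood at 6.51. Fbxl12 read 5.47 and Fbxo5 5.97 in non-failing CFb, where it stood at 6.67. In CM against non-failing CFb, 5 were higher and 7 lower, beside 21.1 and 36.6 percent. Fbxl2 differed by -5.30, the p53-binding Cul9 by -3.79 over 2 probe sets, and the SCF scaffold Cul1 by 3.07. Fbxl2 read only 1.82 and Cul9 3.08 in CM, where the median probe set stood at 6.22. The sizes of these 2 differences thus rest on low readings. In lung fibroblasts against non-failing CFb, 4 were higher and 6 lower, beside 14.1 and 42.3 percent, with Cul1 at 2.42, Cul7 at 2.20 and Fbxo31, a receptor for cyclin D1, at -2.24. In left ventricle against CM, 1 was higher and 7 lower, beside 14.1 and 31.0 percent of all genes, with Cul3 at -4.27 over 5 probe sets. Cul4a had a level of -0.51 in left ventricle and 11.52 in CM, and Cul1 of 0 in left ventricle and 9.38 in CM, and no difference is given for these as the left ventricle values lie low in that sample. In CM against lung fibroblasts, 4 were higher and 5 lower, beside 16.9 and 18.3 percent. Fbxl2 differed by -4.21, Fbxo5 by -2.48 and the p53-directed Fbxo42 by -2.43 over 3 probe sets. Their CM levels of 1.82, 4.41 and 4.12 also lay under the CM median. Genes named here with no number of probe sets given were read by 1. The median difference over the 18 was -0.36, -0.72, 0.05, -1.25 and -0.58 in these 5 pairs, beside -0.13, -0.51, -1.08, -0.98 and -0.02 over all 71 genes.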

How the data were processed

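RNA of 5 samples, each pooled from 5 mice, was read on Affymetrix arrays. The authors deposited log2 expression levels for the cullin and F-box probe sets in 2 sheets, and linear intensity for the whole array in a table of 45101 probe sets. Neither the labels nor the paper states the background correction, the probe set summary or the normalization between samples. The array is named in the paper as a Mouse Expression Set, whereas the labels describe whole-transcript labelling. In each sheet, 4 columns holding the authors' own differences between samples were not used.

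Genes were named by the first symbol in the sheets, and their level is the mean log2 value of all probe sets. Of the 11 probe sets, 11 had an intensity equal to 2 to the power of the log2 value within 1 percent or 0.01 units. SD values are the spread of probe sets within 1 array. Genes named are the 6 members, for each the 2 genes nearest in pattern, and up to 3 genes per pair of the pathway list whose probe sets all differed in 1 direction. The members and lists were chosen with earlier results of these data known. Alternatives were the median or highest probe set, no _s_at or _x_at probe sets, and the whole-array table. Others were equal medians or quantile normalization over the 130 probe sets, 1.5-fold, no level rule, and probe sets in 1 direction. The use of ranks as an alternative to levels, and leaving out each probe set, were chosen after seeing the data. Python 3.11.15, pandas 2.3.3, NumPy 2.4.6 and matplotlib 3.10.9 were used, and the rules were tested on simulated data. The number of arrays limits the precision.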

Additional observations from a re-analysis of the deposited data

How the results depend on the processing

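No paired analysis was possible because no condition was replicated. Counts are of the 6 genes. A level or a count moved where it changed by over 1.5-fold, and a count also where it went to or from 0. Smaller movements of counts are not listed in this section. The absence of a level rule moved no count. The whole-array table and the omission of _s_at and _x_at probe sets could not move one, since the table holds equal values for 11 of 11 probe sets of these genes and none of the 11 has such a name, so they say nothing of stability. No difference counted as at least 2-fold turned its direction under these alternatives, but leaving out 1 probe set, chosen after seeing the data, turned that of Fbxo4 in lung fibroblasts minus non-failing CFb, at 1.41 without 1421543_at and -4.56 without 1427121_at. With the median of the probe sets, 1 gene exceeded 6.5 in non-failing CFb (2 by the mean). Against non-failing CFb, 0 were lower in failing CFb (1), 2 higher in CM (1) and 3 higher in lung fibroblasts (1). In CM minus lung fibroblasts 1 was lower (0). The matching shares of all genes were 57.7, 23.9, 22.5, 18.3 and 19.7 percent. With the highest probe set, 5 exceeded 6.5 in left ventricle (3) and 4 in non-failing CFb. Against non-failing CFb, 2 were lower in failing CFb, 3 higher in CM, and 2 higher and 0 lower in lung fibroblasts (1 lower by the mean). In left ventricle minus CM 2 passed as higher (1). Shares of all genes, in the same order, were 46.5, 67.6, 23.9, 28.2, 25.4, 33.8 and 15.5 percent. With equal medians, 1 exceeded 6.5 in failing CFb (2) and 0 in non-failing CFb, where 1 reached 6.0 (6). Against non-failing CFb, 0 were then lower in failing CFb, 2 higher in CM, and 4 higher and 0 lower in lung fibroblasts. In left ventricle minus CM 3 passed as higher. All genes gave shares of 39.4, 33.8, 56.3, 19.7, 28.2, 23.9, 28.2 and 38.0 percent in this order. With quantile normalization, 3 exceeded 6.5 in CM (6). In failing CFb 1 reached 6.0 and 1 exceeded 6.5, and in non-failing CFb 1 and 0 did. The same scaling gave, against non-failing CFb, 0 lower in failing CFb, 4 higher in CM, and 4 higher and 0 lower in lung fibroblasts. In left ventricle minus CM 3 were higher. For these counts in order, the shares were 36.6, 50.7, 40.8, 52.1, 36.6, 22.5, 25.4, 28.2, 29.6 and 29.6 percent of all genes. At 1.5-fold, 3 were lower in failing CFb, 2 higher in CM and 4 higher in lung fibroblasts than in non-failing CFb. In left ventricle minus CM 3 were higher, and 1 was lower in CM than in lung fibroblasts. Of all genes, 33.8, 28.2, 23.9, 18.3 and 22.5 percent passed, in that order. With all probe sets in 1 direction, 0 were lower in lung fibroblasts than in non-failing CFb and 1 in left ventricle minus CM (2). Here 32.4 and 22.5 percent of all genes were lower. Equal medians shifted left ventricle by 1.33, CM by -0.14, lung fibroblasts by -0.18, failing CFb by -0.42 and non-failing CFb by -0.58 on the log2 scale. The cause of these movements was not tested.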
